A study of Homo sapiens with 38 samples.

Results

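The genes described here are the cellular inhibitors of apoptosis, the TRAF adaptors and the kinase NIK. NIK switches on the noncanonical NF-kB pathway, and the cIAPs with TRAF2 and TRAF3 keep NIK low. The 7 members, BIRC2, BIRC3, XIAP, TRAF1, TRAF2, TRAF3 and MAP3K14, were chosen by symbol from the RefSeq identifiers of the deposited table, and all 7 were among its 12627 genes. RNA came from HCT116, a human colorectal carcinoma line, collected 72 h after transfection with siRNA, and made up 38 libraries in 9 conditions. The conditions were NT, which received no siRNA according to the labels, the non-targeting duplexes siCTRL#1 and siCTRL#2, the single silencing of VPS4A (siVPS4A#1 and siVPS4A#2) or VPS4B (siVPS4B#1 and siVPS4B#2), and the combined silencing of both (siVPS4A+B#1, made of siVPS4A#2 with siVPS4B#1, and siVPS4A+B#2, made of siVPS4A#1 with siVPS4B#2). Every on-target duplex was given at 30 nM, and the single silencing was topped up with siCTRL#1, so the combined silencing differed from the single one also in lacking siCTRL#1. There were 5 libraries of siCTRL#1 and of siVPS4A#1 and 4 of each other condition, and the labels tie replicate numbers to batches. All libraries came from 1 cell line, so the replicates carry no spread between patients. The library labelled siVPS4A#1 replicate 2 was left out: it held 669257 reads where the 37 others held 5090666 to 11035293, and against its label it had only 1 read of VPS4B, or 1.62 per 1000000 reads after scaling, where the other siVPS4A#1 libraries had 21.4 to 32.1.

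VPS4A and VPS4B are paralogous ATPases that take apart the ESCRT-III filaments which cut membranes. In resting cells TRAF3 brings NIK, the product of MAP3K14, to a complex of TRAF2 with cIAP1 or cIAP2, the products of BIRC2 and BIRC3, and the cIAPs mark NIK for degradation. When a receptor of the TNF family, such as CD40, the lymphotoxin beta receptor or the TWEAK receptor, draws these adaptors to the membrane, NIK accumulates, activates IKK alpha, encoded by CHUK, and has the NFKB2 precursor cut to p52, which works with RELB. BIRC3, TRAF1, NFKB2 and RELB are themselves well known NF-kB targets. XIAP is the relative of the cIAPs that blocks caspases directly.

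BIRC3 and BIRC2 lie side by side on the plus strand of chromosome 11 in GRCh37, BIRC3 at chr11:102188215-102210134 and BIRC2 at chr11:102217942-102249401, with 7807 bases between them. MAP3K14 lies at chr17:43340486-43394395 on the minus strand, TRAF3 at chr14:103243786-103377837 and TRAF2 at chr9:139776364-139821059 on the plus strand, TRAF1 at chr9:123664671-123691451 on the minus strand and XIAP at chrX:122993562-123047822 on the plus strand. The antisense genes MAP3K14-AS1 and XIAP-AS1 overlap MAP3K14 and XIAP, an unnamed minus-strand long noncoding RNA overlaps BIRC3, so reads of these genes could be shared with them. HTSeq was used at its default settings, which count by strand, and whether the panel's reads keep the strand of the RNA is not given in the sources used here. The 250 bases before the RefSeq gene start are shown for the neighbours BIRC3 and BIRC2, whose levels moved by very different amounts, for MAP3K14, and for TRAF3. The sequences are RefSeq promoters matched to GRCh37, and capitals mark matches to the kappaB consensus, searched on both strands.
BIRC3 (chr11:102187965-102188214, plus strand): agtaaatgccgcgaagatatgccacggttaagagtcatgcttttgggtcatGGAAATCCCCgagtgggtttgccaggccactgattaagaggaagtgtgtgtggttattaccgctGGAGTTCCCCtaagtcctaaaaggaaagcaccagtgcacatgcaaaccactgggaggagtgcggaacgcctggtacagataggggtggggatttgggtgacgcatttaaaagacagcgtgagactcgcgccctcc
BIRC2 (chr11:102217695-102217944, plus strand): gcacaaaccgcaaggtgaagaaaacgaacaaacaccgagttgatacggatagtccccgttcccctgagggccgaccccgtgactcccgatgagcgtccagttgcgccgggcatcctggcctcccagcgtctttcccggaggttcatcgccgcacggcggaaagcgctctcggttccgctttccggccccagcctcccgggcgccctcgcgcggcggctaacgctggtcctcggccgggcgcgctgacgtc
MAP3K14 (chr17:43394387-43394636, minus strand): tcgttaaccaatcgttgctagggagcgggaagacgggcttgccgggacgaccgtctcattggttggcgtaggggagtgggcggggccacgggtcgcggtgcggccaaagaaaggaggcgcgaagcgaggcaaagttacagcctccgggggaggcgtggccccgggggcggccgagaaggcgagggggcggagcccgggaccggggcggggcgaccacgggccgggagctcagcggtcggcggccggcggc
TRAF3 (chr14:103243536-103243785, plus strand): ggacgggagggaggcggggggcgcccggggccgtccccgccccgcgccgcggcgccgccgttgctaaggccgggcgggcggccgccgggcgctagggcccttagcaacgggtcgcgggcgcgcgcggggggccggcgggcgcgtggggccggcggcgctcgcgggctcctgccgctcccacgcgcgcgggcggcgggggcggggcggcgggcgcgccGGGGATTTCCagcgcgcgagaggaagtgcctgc
The BIRC3 window held 2 matches, starting 199 and 135 bases before the gene start, and the TRAF3 window held 1, starting 33 bases before it. The windows of BIRC2, MAP3K14, XIAP, TRAF1 and TRAF2 held none. The TRAF2 window, chr9:139780718-139780967, lies inside the gene position given above, and the bases before the start of that position were not searched. Of the 10206 listed genes with a promoter in the RefSeq table, 11.9% held at least 1 match and 1.97% held 2 or more. A match is a string of letters and was not examined for binding.

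The silenced genes were reduced wherever the labels said so. Levels are given as RPM, reads of a gene per 1000000 reads of its library, scaled between libraries by TMM. VPS4A averaged 190 ± 13.96 RPM in siCTRL#1 (SD, n = 5), 2.18 ± 0.895 in siVPS4A#1 and 7.88 ± 2.22 in siVPS4A#2 (n = 4 each), and 19.96 ± 10.6 in siVPS4A+B#1 against 5.03 ± 1.96 in siVPS4A+B#2 (n = 4 each). VPS4B averaged 20.7 ± 3.54 in siCTRL#1 and was at most 1.57 in each of the 16 libraries that received a VPS4B duplex. The duplex pairs therefore did not reduce VPS4A to the same level, and siVPS4A+B#2 stood 1.72 ± 0.23 (SE) lower on the log2 scale than siVPS4A+B#1 (limma, adjusted p = 1.6e-07). VPS4A was also higher in each pair than with its VPS4A duplex alone. The log2 difference was 1.13 ± 0.23 for siVPS4A+B#1 minus siVPS4A#2 (limma, adjusted p = 0.00011). For siVPS4A+B#2 minus siVPS4A#1 it was 0.87 ± 0.24 (limma, adjusted p = 0.0053). Of 8 colorectal epithelial markers 6 were listed, and all 6 had a median of at least 1 RPM. Of the 6 leukocyte markers 2 were listed, and these, LYZ at no more than 0.927 RPM and CD68, which encodes a lysosomal protein, summed to 41.0 to 176 RPM in combined silencing against 5.27 to 10.7 in NT and siCTRL#1. The 2 listed of 5 fibroblast markers, COL1A1 and PDGFRB, summed to 23.01 to 85.4 RPM against 8.12 to 32.1, with PDGFRB at no more than 1.10, and the 1 listed of 3 endothelial markers, PECAM1, stayed at or under 1.75. All libraries came from the HCT116 line, and why the levels of these markers differed was not tested.

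The axis changed in combined silencing, where 3 genes passed the rule given below. BIRC3 rose about 26-fold over siCTRL#1, MAP3K14 4.07- to 6.09-fold and BIRC2 1.80- to 2.12-fold, while TRAF2 did not pass the rule against NT or siCTRL#1 and TRAF1 stayed at 0 to 5 reads throughout. Over NT the folds of BIRC3, MAP3K14 and BIRC2 were 61.1 to 61.9, 2.52 to 3.77 and 2.36 to 2.77. Over siCTRL#2 they were 45.4 to 46.0, 2.44 to 3.66 and 1.498 to 1.76. A gene was called when it differed at least 1.5-fold with an adjusted p under 0.05 (limma, Benjamini-Hochberg over 12627 genes), and called for combined silencing when both pairs passed against NT and against siCTRL#1, 4 comparisons that share their control libraries. By this rule 3 of the 7 members rose and none fell. XIAP missed it in 1 of the 4 comparisons and rose 1.63- to 2.25-fold over siCTRL#1, so the rule divides it from BIRC2 narrowly. Over all genes 3.96% rose and 4.16% fell by the same rule. The mean log2 fold change over the 4 comparisons had a median of 0.84 over the 7 members and of -0.03 over all genes. The members were chosen with earlier results of these data known, so setting them against all genes is a description only. Fold changes are on the scale of log2(RPM + 1), which draws genes with few reads toward 0. In bulk RNA, fewer cells of a kind and less RNA per cell cannot be told apart.

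**Figure D1:**
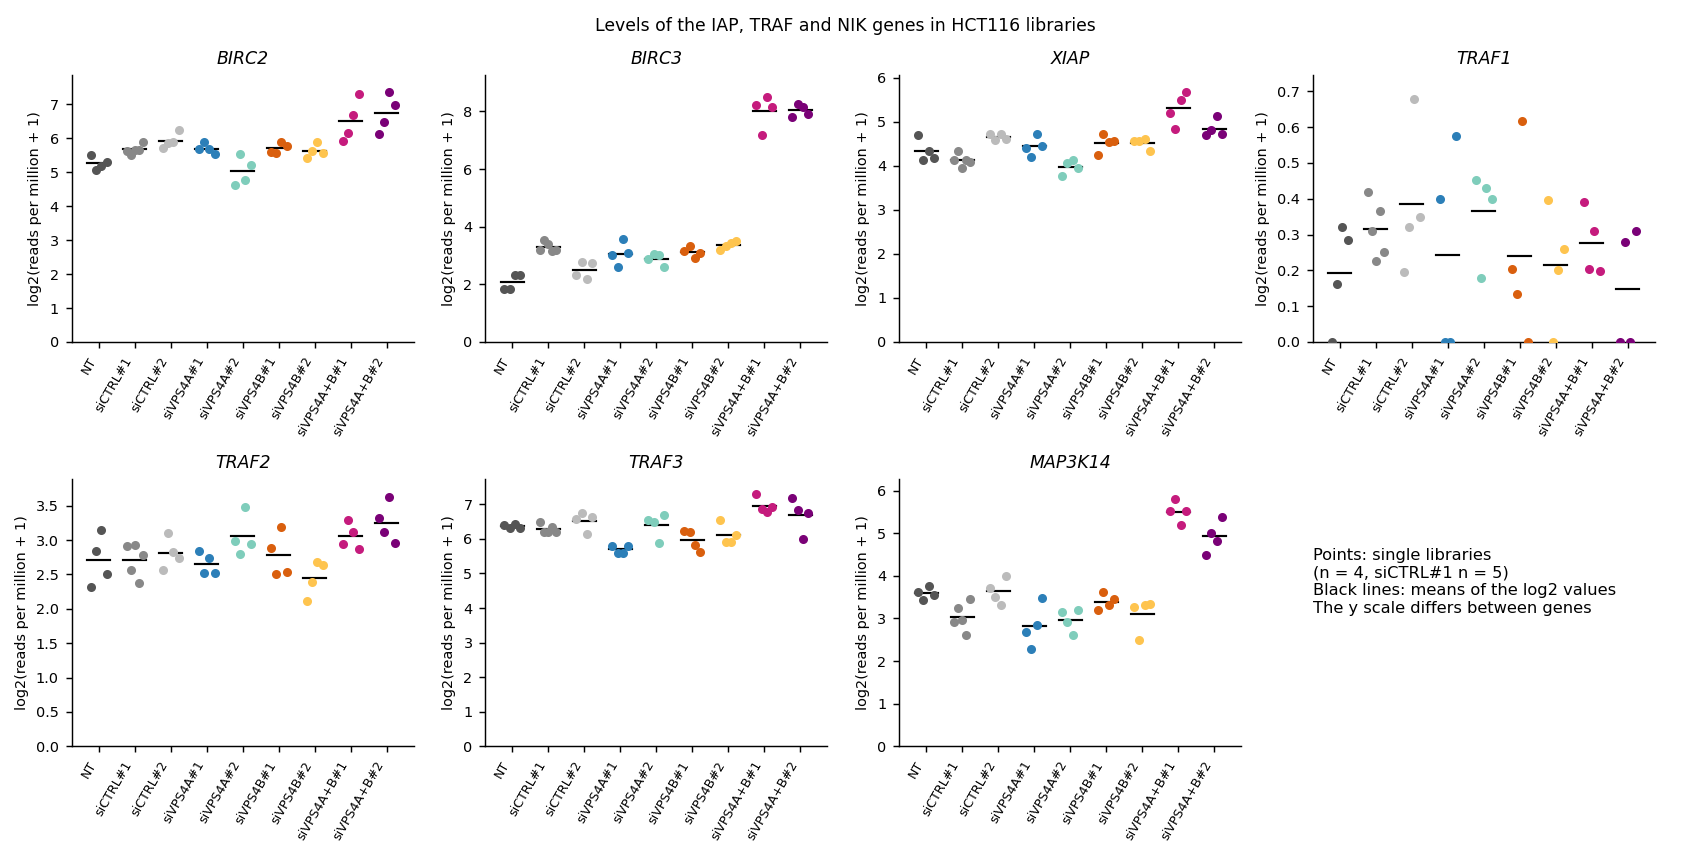
Levels of the 7 genes in each library, as log2(RPM + 1) on the y axis, by condition on the x axis. Points are single libraries (n = 4, siCTRL#1 n = 5), black lines are means, and the y scale differs between genes. All 8 combined-silencing libraries stand above every other library for BIRC3 and MAP3K14, as for 1.1% of all genes. TRAF1 stays near 0 in all conditions.

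BIRC3, which encodes cIAP2, was the most responsive member. It stood at 296, 146, 362 and 284 RPM in siVPS4A+B#1 replicates 1 to 4 and at 221, 307, 287 and 240 in siVPS4A+B#2. The 9 NT and siCTRL#1 libraries held 2.56 to 10.6, and the 29 libraries outside combined silencing reached at most 10.95. All 8 combined libraries were thus above the other 29, as was the case for 1.1% of all genes, and the lowest combined library, siVPS4A+B#1 replicate 2, still had 957 reads of BIRC3. Against NT the log2 fold change was 5.93 ± 0.21 (SE) for siVPS4A+B#1 (adjusted p = 2.2e-24) and 5.95 ± 0.21 for siVPS4A+B#2 (adjusted p = 9.7e-25) by limma. Against siCTRL#1 it was 4.71 ± 0.20 (adjusted p = 2.8e-21) and 4.73 ± 0.20 (adjusted p = 1.6e-21). Within single replicate numbers the difference from siCTRL#1 lay between 3.66 and 5.09 for siVPS4A+B#1 and between 4.61 and 4.76 for siVPS4A+B#2, higher in 4 of 4 pairs each. The pairs differed from each other by 0.02 ± 0.21 on the log2 scale (adjusted p = 0.96).

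BIRC2, which encodes cIAP1, rose far less than its neighbour. It stood at 59.3, 70.0, 102 and 156 RPM in siVPS4A+B#1 and at 69.5, 88.8, 164 and 125 in siVPS4A+B#2. NT and siCTRL#1 libraries held 32.9 to 58.8. All 8 combined libraries were above all 9 of these controls, as was the case for 529 of the 12627 genes. A siCTRL#2 library reached 75.0, however, and 3 of the 8 combined libraries lay below it. The levels were lower in replicates 1 and 2 than in replicates 3 and 4 of both pairs, which are different batches by the labels. The log2 fold change was 1.24 ± 0.19 (adjusted p = 1.7e-06) and 1.47 ± 0.19 (adjusted p = 5.0e-08) against NT, and 0.85 ± 0.19 (adjusted p = 0.00039) and 1.08 ± 0.19 (adjusted p = 8.7e-06) against siCTRL#1, for siVPS4A+B#1 and siVPS4A+B#2 by limma. Within replicates the difference from siCTRL#1 ran from 0.27 to 1.65 for siVPS4A+B#1 and from 0.50 to 1.70 for siVPS4A+B#2. The call was lost without replicate 4, where the mean of the 4 log2 fold changes was 0.99, under limma's treat, which tests against the fold limit itself (1.16), and with siCTRL#2 as the control, where siVPS4A+B#1 was higher by 0.58 ± 0.19 (adjusted p = 0.013), just short of the fold limit.

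XIAP, the direct caspase inhibitor, rose over NT, siCTRL#1 and siCTRL#2 in siVPS4A+B#1, and in siVPS4A+B#2 over siCTRL#1 alone. It stood at 35.9, 27.5, 44.4 and 50.7 RPM in siVPS4A+B#1 and at 25.04, 27.1, 34.4 and 25.5 in siVPS4A+B#2, against 14.6 to 25.2 in NT and siCTRL#1, so only 1 combined library fell within the range of these controls. It passed the rule in 3 of 4 comparisons, with log2 fold changes of 0.97 ± 0.16 (adjusted p = 6.7e-06) and 1.17 ± 0.16 (adjusted p = 1.9e-07) for siVPS4A+B#1 and 0.71 ± 0.16 (adjusted p = 0.00035) for siVPS4A+B#2 against siCTRL#1. Against NT, siVPS4A+B#2 differed by 0.51 ± 0.16 (limma, adjusted p = 0.010), short of the fold limit. Over siCTRL#2, siVPS4A+B#1 was higher by 0.65 ± 0.16 (adjusted p = 0.0013), while siVPS4A+B#2 differed by 0.19 ± 0.16 (adjusted p = 0.35). The control duplexes themselves differed by 0.52 ± 0.16 for XIAP (siCTRL#2 minus siCTRL#1, limma, adjusted p = 0.012), short of 1.5-fold, so the call in siVPS4A+B#2 depended on the control duplex used. Without NT replicate 1, the library with the highest XIAP among NT and siCTRL#1, all 4 comparisons passed.

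TRAF3, the adaptor that delivers NIK to the cIAPs, passed over NT and siCTRL#1 in siVPS4A+B#1 only, and over siCTRL#2 in neither pair. Its level was 155, 115, 108 and 120 RPM in siVPS4A+B#1 and 145, 113, 62.5 and 106 in siVPS4A+B#2, against 72.0 to 89.1 in NT and siCTRL#1. All but siVPS4A+B#2 replicate 3 were above these controls, and that library was below them all. The log2 fold changes were 0.60 ± 0.15 (adjusted p = 0.0012) and 0.67 ± 0.14 (adjusted p = 0.00028) for siVPS4A+B#1, and 0.33 ± 0.15 (adjusted p = 0.068) and 0.40 ± 0.14 (adjusted p = 0.021) for siVPS4A+B#2, against NT and siCTRL#1 by limma. Over siCTRL#2, 1 library of which reached 106 RPM, siVPS4A+B#1 was higher by 0.44 ± 0.15 (limma, adjusted p = 0.016), short of the fold limit. For siVPS4A+B#2 the difference from siCTRL#2 was 0.16 ± 0.15 (adjusted p = 0.37). Without replicate 3 all 4 comparisons with NT and siCTRL#1 passed and their mean was 0.65.

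TRAF2, the adaptor that holds the cIAPs, had log2 fold changes of 0.33 ± 0.17 to 0.55 ± 0.18 in combined silencing, none of which reached 1.5-fold. Its levels were 6.30 to 8.82 RPM in siVPS4A+B#1, 6.73 to 11.4 in siVPS4A+B#2 and 3.99 to 7.83 in NT and siCTRL#1, and 3 of the 8 combined libraries lay above all of these controls. TRAF1, an NF-kB-induced partner of TRAF2, had at most 2 reads in any combined library and at most 5 in any library, which is at or near the counting floor of 3 reads (up to 0.589 RPM before scaling), so that no fold change is given. A filter for low values kept 6 of the 7 members, all but TRAF1.

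MAP3K14, which encodes NIK, rose in both pairs, with no overlap between combined silencing and any other condition. It stood at 44.6, 54.8, 35.6 and 44.7 RPM in siVPS4A+B#1 and at 21.3, 31.2, 27.4 and 40.5 in siVPS4A+B#2. NT libraries held 9.73 to 12.6 and siCTRL#1 libraries 5.07 to 9.93, and no library outside combined silencing passed 15.0. All 8 combined libraries were above the 29 others for 1.1% of all genes. The log2 fold change was 1.91 ± 0.19 (adjusted p = 1.5e-10) and 1.33 ± 0.19 (adjusted p = 3.9e-07) against NT, and 2.61 ± 0.19 (adjusted p = 2.5e-14) and 2.02 ± 0.19 (adjusted p = 1.9e-11) against siCTRL#1, for siVPS4A+B#1 and siVPS4A+B#2 by limma. Within replicates the difference from siCTRL#1 ran from 2.23 to 2.91 and from 1.56 to 2.77. Over siCTRL#2 the log2 fold change was 1.87 ± 0.19 (limma, adjusted p = 2.2e-10) and 1.29 ± 0.19 (adjusted p = 5.3e-07).

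**Figure D2:**
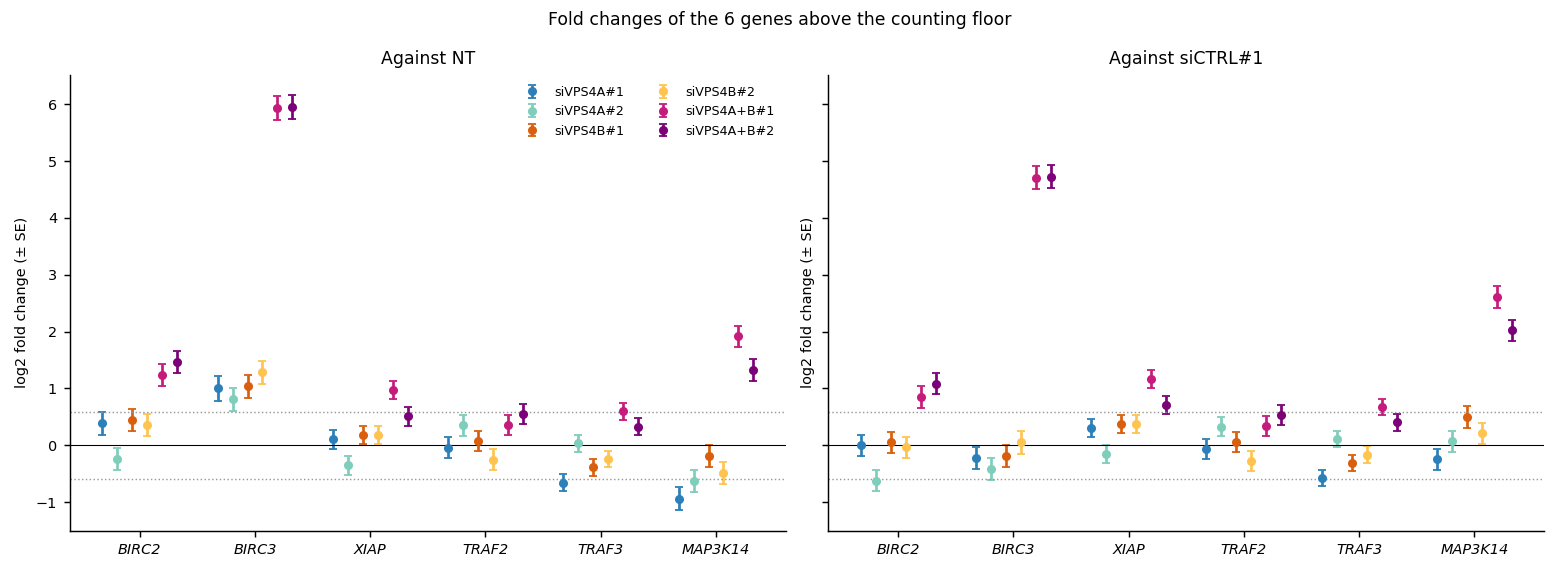
Log2 fold changes (y axis, ± SE) of the 6 members above the counting floor against NT (left) and siCTRL#1 (right), coloured by on-target condition. Dotted lines mark 1.5-fold. BIRC3 and MAP3K14 stand clear of the single silencing in both combined pairs, and the single-silencing values of BIRC3 are above the line against NT but not against siCTRL#1.

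In the separate comparisons, siVPS4A+B#1 had 5 of 7 members higher than NT, where 12.6% of all genes were, and 5 of 7 higher than siCTRL#1, where 10.6% were. For siVPS4A+B#2 the counts were 3 of 7 against NT (13.2% of all genes) and 4 of 7 against siCTRL#1 (12.8%). The pairs were compared directly as well. No member passed the rule between them, where 17.4% of all genes did, and edgeR and DESeq2 called none either, but 2 members had an unadjusted p under 0.05 in limma. These were MAP3K14, at -0.58 ± 0.19 for siVPS4A+B#2 minus siVPS4A+B#1 on the log2 scale (adjusted p = 0.020), and XIAP, at -0.46 ± 0.16 (adjusted p = 0.029), both short of 1.5-fold.

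The single silencing of VPS4B or of VPS4A gave no member that passed all 4 comparisons with NT and siCTRL#1. Of all genes 1.12% passed them for VPS4B and 1 gene (0.00792%) for VPS4A, so that none of 7 members is no result about the members. By edgeR and DESeq2 both counts were also 0, and at an unadjusted p under 0.05 in all 4 limma comparisons they were 0 as well. BIRC3 was called higher than NT in each of the 4 single conditions, by 1.00 ± 0.22 (siVPS4A#1, adjusted p = 0.00026), 0.81 ± 0.21 (siVPS4A#2, adjusted p = 0.0060), 1.04 ± 0.21 (siVPS4B#1, adjusted p = 0.00010) and 1.28 ± 0.21 (siVPS4B#2, adjusted p = 9.7e-06) on the log2 scale by limma. Against siCTRL#1, which the single silencing also contained, the BIRC3 differences were -0.23 ± 0.20, -0.42 ± 0.20, -0.19 ± 0.20 and 0.05 ± 0.20, and none passed. With siCTRL#2 in place of siCTRL#1 as the control, 1 member passed for each target. BIRC3 was higher than siCTRL#2 by 0.61 ± 0.21 in siVPS4B#1 (limma, adjusted p = 0.017) and 0.85 ± 0.21 in siVPS4B#2 (adjusted p = 0.0011). MAP3K14 differed from siCTRL#2 by -0.98 ± 0.20 in siVPS4A#1 (adjusted p = 0.00012) and -0.67 ± 0.19 in siVPS4A#2 (limma, adjusted p = 0.0076). The BIRC3 call in siVPS4A#2 against NT was lost without replicate 1, at 0.73. With the left-out library kept, BIRC3 was still called over NT in siVPS4A#1, the condition that library is labelled as (2.14), and no longer in siVPS4A#2 (0.81), siVPS4B#1 (1.04) or siVPS4B#2 (1.28). Under treat none of the 4 BIRC3 calls over NT held.

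MAP3K14 and TRAF3 were the other members called in single silencing. MAP3K14 was lower than NT in siVPS4A#1 by 0.94 ± 0.20 on the log2 scale (adjusted p = 0.00027), and in siVPS4A#2 it differed by -0.62 ± 0.19 (adjusted p = 0.024). The second of these calls was lost without the replicate block, at the same -0.62, without replicate 1 (-0.67) or 3 (-0.45), and without replicate 1 or 3 of NT or replicate 2 or 3 of siVPS4A#2, at -0.61 to -0.52. TRAF3 was lower than NT in siVPS4A#1 by 0.66 ± 0.16 (adjusted p = 0.00080). The TRAF3 libraries of siVPS4A#1 held 54.6, 47.5, 47.5 and 54.0 RPM and the NT libraries 78.1 to 84.9. That call was lost when libraries were scaled by total reads alone (-0.54), without siVPS4A#1 replicate 1 (-0.58) and without NT replicate 3 (-0.53). With the left-out library kept, the siVPS4A#1 differences from NT were -0.40 for MAP3K14 and -0.40 for TRAF3, that of MAP3K14 in siVPS4A#2 was -0.63, and none was called. None of the 3 was called under treat either. In the 4 comparisons with NT, the share of all genes called in either direction was 25% for siVPS4A#1, 8.15% for siVPS4A#2, 22.3% for siVPS4B#1 and 15.5% for siVPS4B#2.

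Against siCTRL#1 no member was called in any of the 4 single conditions by limma, where 22%, 0.0871%, 12.9% and 7.57% of all genes were for siVPS4A#1, siVPS4A#2, siVPS4B#1 and siVPS4B#2. At an unadjusted p under 0.05 there were 1, 2, 3 and 1 members, and DESeq2 called none, while edgeR called 1, in siVPS4A#1. The closest was TRAF3 in siVPS4A#1, at -0.58 ± 0.14 on the log2 scale (limma, adjusted p = 0.0011), a fold of 1.497 that fell just short of the limit.

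Single members also differed between the controls, in counts too small to set the members apart from all genes. BIRC3 averaged 3.30 ± 0.821 RPM in NT (SD, n = 4), 8.88 ± 1.18 in siCTRL#1 (n = 5) and 4.79 ± 1.14 in siCTRL#2 (n = 4). The NT libraries held 2.56 to 4.04 and the siCTRL#1 libraries 7.96 to 10.6. In siCTRL#1 BIRC3 was higher than in NT by 1.23 ± 0.20 on the log2 scale (adjusted p = 2.8e-05) and MAP3K14 differed by -0.69 ± 0.19 (adjusted p = 0.0086), the 2 members called there, where 9.05% of all genes were. In siCTRL#2 BIRC2 was higher than in NT by 0.65 ± 0.19 (limma, adjusted p = 0.0088), the 1 member called, where 16.6% of all genes were, and it was no longer called without replicate 4 (0.56) or NT replicate 3 (0.58). Between siCTRL#2 and siCTRL#1, BIRC3 differed by -0.80 ± 0.20 (adjusted p = 0.0022) and MAP3K14 by 0.73 ± 0.19 (adjusted p = 0.0026), with 16.8% of all genes called, and the MAP3K14 difference was no longer called without replicate 4 (0.53). The MAP3K14 call between siCTRL#1 and NT was lost without the replicate block (-0.55), without replicate 3 (-0.64), without NT replicate 3 (-0.58) and without siCTRL#1 replicate 4 (-0.55), which left 1 member. Under treat, and with the left-out library kept, no member was called in any of the 3 comparisons between controls.

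Between the VPS4A duplexes 2 of 7 members were called, where 22.2% of all genes were, a share near that of the members. BIRC2 was higher in siVPS4A#1 than in siVPS4A#2 by 0.63 ± 0.20 on the log2 scale (adjusted p = 0.014), and TRAF3 differed by -0.69 ± 0.16 (limma, adjusted p = 0.00050). The BIRC2 libraries held 45.6 to 57.8 RPM in siVPS4A#1 and 23.7 to 45.4 in siVPS4A#2. The BIRC2 difference was no longer called without replicate 1 (0.44) or 3 (0.45), nor without replicate 1 or 3 of siVPS4A#1 or of siVPS4A#2 (0.48 to 0.58). The TRAF3 difference was no longer called without replicate 4 (-0.55) or siVPS4A#2 replicate 4 (-0.58), nor with the left-out library kept (-0.43), where BIRC2 differed by 1.11. Neither was called under treat. Between the VPS4B duplexes no member was called by limma, edgeR or DESeq2 or had an unadjusted p under 0.05, and 15.1% of all genes were called.

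Ordered by their means, the conditions ran for BIRC3 from NT over siCTRL#2, siVPS4A#2, siVPS4A#1, siVPS4B#1, siCTRL#1 and siVPS4B#2 (9.33 ± 0.967) to siVPS4A+B#2 (264 ± 40.1) and siVPS4A+B#1 (272 ± 91.0), and the step into combined silencing was the only one at which the libraries of neighbouring conditions did not overlap. For MAP3K14 the order ran from siVPS4A#1 (6.41 ± 2.66) over siVPS4A#2, siCTRL#1, siVPS4B#2, siVPS4B#1, NT and siCTRL#2 (11.6 ± 2.58) to siVPS4A+B#2 (30.1 ± 8.05) and siVPS4A+B#1 (44.9 ± 7.85). The libraries of siVPS4A+B#2 and siVPS4A+B#1 overlapped, and those of siCTRL#2 and siVPS4A+B#2 did not. For BIRC2 siVPS4A#2 was lowest, at 32.9 ± 10.0, and siVPS4A+B#2 highest, at 112 ± 41.8 (SD, n = 4 each).

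Combined silencing was also set against the single silencing with the same duplexes, although the VPS4A duplexes reduced VPS4A less in the pairs than alone. BIRC2, BIRC3 and MAP3K14 were higher in all 4 of these comparisons, where 2.05% of all genes were. BIRC3 exceeded the single silencing by 4.67 to 5.13 on the log2 scale, MAP3K14 by 1.81 to 2.54 and BIRC2 by 0.80 to 1.47. The largest adjusted p among these 12 limma values was 0.0028, for BIRC2 in siVPS4A+B#1 against siVPS4B#1. The BIRC2 call was lost without replicate 4, at a mean of 0.96, and without siVPS4A+B#1 replicate 4, at 1.00. It was also lost with the left-out library kept, at 1.02, while BIRC3 (4.64) and MAP3K14 (2.07) stayed called, and under treat, at 1.12.

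XIAP, TRAF2 and TRAF3 each passed 2 of the 4 comparisons. XIAP passed for siVPS4A+B#1, by 1.32 ± 0.16 over siVPS4A#2 (adjusted p = 2.2e-08) and 0.79 ± 0.16 over siVPS4B#1 (adjusted p = 0.00054). TRAF2 passed for siVPS4A+B#2, by 0.59 ± 0.19 over siVPS4A#1 (adjusted p = 0.015) and 0.80 ± 0.18 over siVPS4B#2 (adjusted p = 0.00039). TRAF3 passed over siVPS4B#1 and over siVPS4A#1, by 0.98 ± 0.15 (adjusted p = 4.4e-06) and 0.98 ± 0.16 (adjusted p = 5.8e-06), and its other values of 0.56 ± 0.15 and 0.57 ± 0.15 were just under 1.5-fold. The shares of all genes higher in these comparisons were 11.4% over siVPS4A#2, 4.85% over siVPS4B#1, 8.55% over siVPS4A#1 and 11.8% over siVPS4B#2.

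An interaction term asked whether the effect of a pair exceeded the sum of the effects of its duplexes on the log2 scale, relative to siCTRL#1. BIRC2, BIRC3, MAP3K14 and TRAF3, 4 members, did so for both pairs, where 2.48% of all genes did. BIRC3 exceeded the sum by 5.31 ± 0.29 (adjusted p = 3.6e-17) for siVPS4A+B#1 and 4.90 ± 0.28 (adjusted p = 2.4e-16) for siVPS4A+B#2, and MAP3K14 by 2.04 ± 0.27 (adjusted p = 1.3e-06) and 2.06 ± 0.27 (adjusted p = 3.3e-07). BIRC2 exceeded it by 1.42 ± 0.27 (adjusted p = 0.00045) and 1.12 ± 0.27 (adjusted p = 0.0022), and TRAF3 by 0.87 ± 0.21 (adjusted p = 0.0057) and 1.15 ± 0.21 (adjusted p = 7.1e-05). TRAF3 was thus among the 4 although it rose in only 2 of 4 comparisons with controls, its single-silencing effects being -0.58 to 0.11 against siCTRL#1, and it was no longer called for both pairs without replicate 3. With the left-out library kept 3 members did so, BIRC2 being lost at a mean of 1.10. Under treat 2 members did so, BIRC2 (1.27) and TRAF3 (1.01) being lost.

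The remaining members split between the pairs. XIAP exceeded the sum for siVPS4A+B#1 by 0.94 ± 0.23 (adjusted p = 0.0065), where 3.82% of all genes did, and by 0.02 ± 0.23 for siVPS4A+B#2 (adjusted p = 0.96). TRAF2 exceeded it for siVPS4A+B#2 by 0.86 ± 0.25 (adjusted p = 0.011), where 9.64% of all genes did, and stood at -0.05 ± 0.25 for siVPS4A+B#1 (adjusted p = 0.94). The pairs use different duplexes of both targets, so the duplex and the depth of VPS4A silencing cannot be told apart here.

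**Figure D3:**
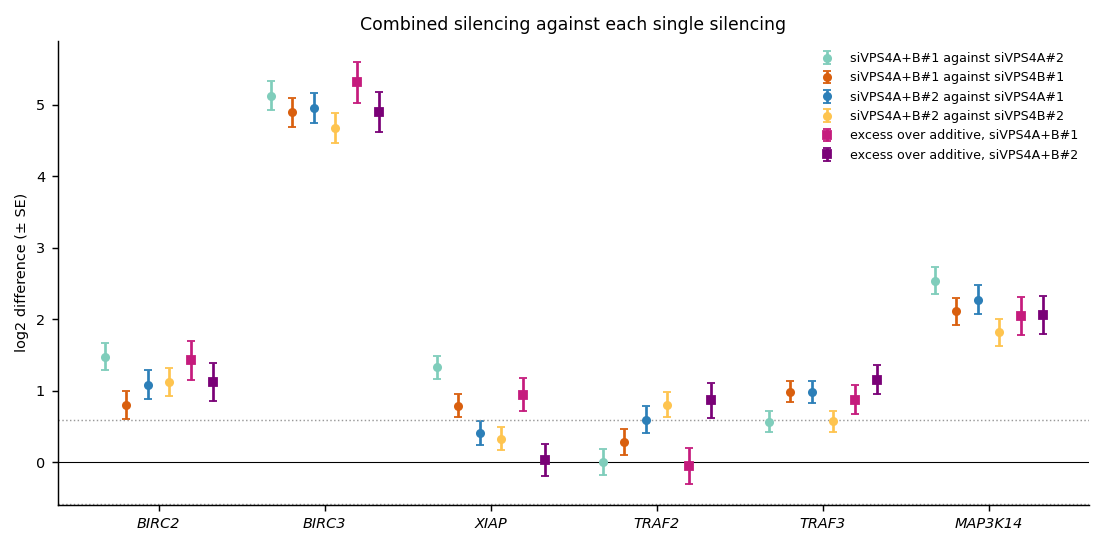
Log2 differences (y axis, ± SE) of combined silencing from each single silencing with the same duplex (circles) and in excess of the sum of the single effects (squares), for 6 members. Dotted lines mark 1.5-fold. BIRC3, MAP3K14 and BIRC2 lie above the upper line throughout, and XIAP and TRAF2 do so for 1 pair only.

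Because BIRC3 and BIRC2 are neighbours whose products share a task, their reads were also set against each other within each library, which cancels depth and scaling. The panel may amplify each gene with its own efficiency, so only changes of the ratio are read. There were 0.0883 ± 0.0250 BIRC3 reads per BIRC2 read in NT and 0.179 ± 0.0378 in siCTRL#1 (SD, n = 4 and 5). In siVPS4A+B#1 the ratios were 4.99, 2.08, 3.54 and 1.82, and in siVPS4A+B#2 they were 3.18, 3.46, 1.75 and 1.92, so that all 8 libraries were above the 29 others, which reached at most 0.276. The log2 ratio rose by 4.00 for siVPS4A+B#1 (2-sided exact permutation test, p = 0.016, adjusted p over 12 tests = 0.057) and by 3.78 for siVPS4A+B#2 (p = 0.016, adjusted p = 0.057, exact permutation) against siCTRL#1. Against NT it rose by 5.01 and 4.80 (exact permutation, p = 0.029 and adjusted p = 0.057 each). These are the smallest p-values that the design allows, 0.016 against siCTRL#1 and 0.029 against NT, and the adjusted values did not pass 0.05. The ratio of siVPS4A#2 and siVPS4B#2 exceeded NT as well, by 1.21 and 1.14 (exact permutation, p = 0.029, adjusted p = 0.057 each). The single silencing differed from siCTRL#1 by -0.29 to 0.20 in the log2 ratio.

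**Figure D4:**
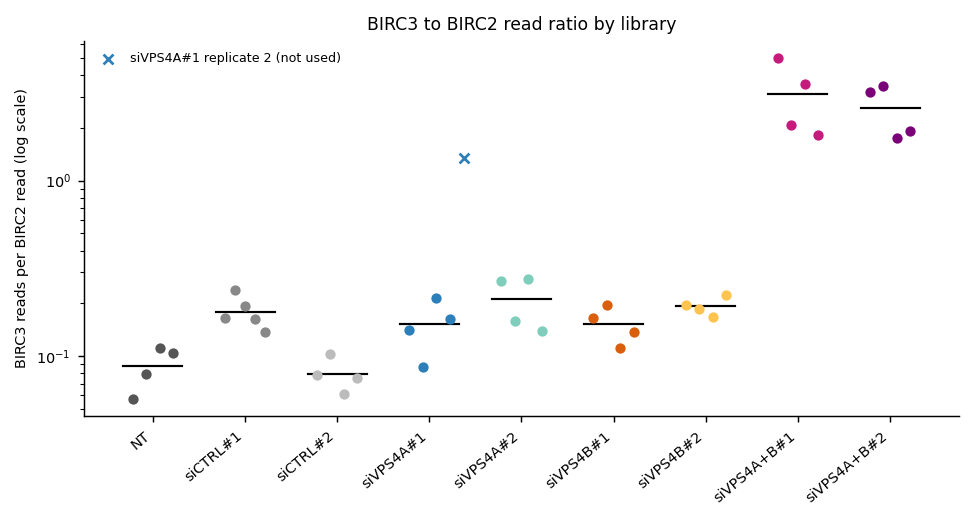
BIRC3 reads per BIRC2 read in each library (log y axis) by condition, with black lines at the means. The 8 combined-silencing libraries lie between 1.75 and 4.99, and the cross marks the library labelled siVPS4A#1 replicate 2, which entered no comparison.

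The genes around the pair on chromosome 11 did not all share its change. Within 500000 bases on either side, 7 of 15 protein-coding genes were listed. YAP1, upstream of BIRC3, had a mean log2 fold change of 0.15 over the 4 comparisons and TMEM123, downstream of BIRC2, of -0.02, and neither passed in any comparison. MMP7 passed in 2 of 4 comparisons and MMP20 in 3 of 4, at means of 0.56 and 0.77 and at no more than 79 and 39 reads in any library, and CEP126 was lower in 1.

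Beyond the 7 members, 61 genes of the pathway were set out by role, of which 52 were listed. In combined silencing 7 rose (13.5%) and 2 fell (3.85%) in all 4 comparisons, and the median over the 52 of the mean log2 fold change was 0.08. Over all genes these shares were 3.96% and 4.16%. The list was chosen with earlier results of these data known, so setting it against all genes is a description only. With siCTRL#2 as the control 14 rose, and the share of all genes under that control is not given here. Under treat 3 rose and 0 fell, where 148 of all 12627 genes rose and 81 fell. Both noncanonical subunits rose. RELB, the partner of p52, rose from 17.99 ± 3.21 RPM in siCTRL#1 to 123 ± 23.7 in siVPS4A+B#1 and 116 ± 12.9 in siVPS4A+B#2, with log2 fold changes of 2.55 to 2.65. NFKB2, the p52 precursor, rose from 162 ± 35.8 to 839 ± 239 and 504 ± 90.7, by 1.35 to 2.38. RELB and NFKB2 were above all NT and siCTRL#1 libraries in 8 of 8 combined libraries, as were 529 of the 12627 genes. The kinase that acts between NIK and NFKB2, CHUK, had log2 fold changes of -0.04 to 0.19 and passed in none.

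Of the 9 receptors, 1 rose in all 4 comparisons. This was TNFRSF9, also called 4-1BB, which went from 1.07 ± 0.0964 RPM in siCTRL#1 to 44.7 ± 22.9 and 42.1 ± 17.2, by 4.32 to 5.09 on the log2 scale. TNFRSF12A, the TWEAK receptor, passed in 3 of 4 with log2 fold changes from -0.04 to 1.397, LTBR ranged from -0.60 to 0.41 and CD40 from -0.37 to 0.19. Of the 2 listed ligands TNF passed in all 4, but with at most 2 reads in any NT or siCTRL#1 library and 0 to 20 in the combined libraries, only 5 of which lay above the controls.

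Among the remaining roles, TNFAIP3, the deubiquitinase A20 and an inhibitor of NF-kB, rose by 1.04 to 2.26, and CYLD, another such deubiquitinase, passed in 3 of 4 comparisons. Of the 7 other TRAF proteins and partners TRAF4 rose by 0.76 to 1.09, and TRAF5 and TRAF6 had means of -0.53 and -0.12. TRAF4 was as high in siVPS4A#1, at 201 ± 7.77 RPM, as in the combined pairs, at 186 ± 23.7 and 192 ± 23.4. In siCTRL#1 it averaged 108 ± 6.91. TRAF4 was not called for combined against single silencing, nor for the interaction. IKBKG, the regulatory subunit of the IKK complex, passed by 0.62 to 1.43 but had at most 18 reads in any library and shares sequence with a pseudogene copy, so its value is uncertain. The 2 that fell were BIRC5, the inhibitor of apoptosis survivin that acts in cell division, at -1.38 to -0.92, and PELI1, a ubiquitin ligase, at -1.69 to -0.81 on the log2 scale. BIRC5 also fell in all 4 comparisons of VPS4B silencing, the 1 gene of the list that did. CYLD, TRAF5 and TRAF6 were named after their values were seen.

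The profiles over the 9 condition means of log2(RPM + 1) were compared across 11716 other genes that reached a mean of 1 RPM in a condition. As a description over 9 points, dominated by the 2 combined conditions, the genes most like BIRC3 were TNF, TNFRSF9 and TUSC3, with Pearson r of 0.988, 0.988 and 0.987, of which TNF and TUSC3 had condition means of no more than 1.62 RPM. Those most like MAP3K14 were NFKB2 (0.978), RASD1, a Ras-related protein (0.968), and BTG1, an inhibitor of proliferation (0.964), and those most like BIRC2 were GABARAPL1, an autophagy protein (0.962), PSME4, a proteasome activator (0.962), and GLRX3 (0.956). BIRC3 itself had r = 0.892 with MAP3K14 and 0.877 with BIRC2.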

How the data were processed

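The authors made libraries with the Ion AmpliSeq Transcriptome panel, whose amplicons were sequenced on an Ion Proton, mapped by TMAP against the hg19 panel sequences and counted by HTSeq 0.6.0 at its default settings, with DESeq2 1.18.1 for their own tests. What they deposited is a signal, each gene's share of the reads of its library over 12627 genes. Whole reads were recovered from the steps between low values: where a share was printed finely enough (within 0.1 read, 50.4% of values), 100% were whole to 0.2 read. Libraries used held 5090666 to 11035293 reads (median 7561496). RefSeq identifiers gave a symbol for 12474 genes.

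Reads were scaled by TMM (edgeR 4.0.16) to reads per 1000000 (RPM), 1 was added, and limma 3.58.1 in R 4.3.3 was fitted with trend to the log2 values of 37 libraries in 9 conditions, blocked by replicate number, and adjusted by Benjamini-Hochberg over all genes. The labels give the number as a shared batch (a to e), and same-numbered libraries correlated at 0.19 on average after the condition means were removed, others at -0.08. The levels printed are RPM after this scaling. The values of a few listed genes are not reported here. A gene had to differ 1.5-fold with an adjusted p under 0.05.

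The members and lists were chosen with earlier results of these data known. Genes named are the 7 members, pathway genes called in all 4 combined comparisons, 6 defining pathway genes, and for each called member the 3 genes with the most similar condition means. Intervals and floors cover counting error only, as the reads were amplified and carry no molecular identifiers. The study calls its repeats independent experiments, and p-values measure the spread between them within this line. Alternatives were edgeR and DESeq2 1.42.0 on the reads, scaling by DESeq2 size factors or total reads, a pseudocount of 0.1, a filter on low values, limma's treat, no fold minimum, no block, siCTRL#2 as control, and leaving out each library or replicate number.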

Additional observations from a re-analysis of the deposited data

Results flagged for a closer look

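The library labelled siVPS4A#1 replicate 2, which entered no comparison, had levels whose counting interval lay above all control libraries for 3 members. It held 274 RPM of BIRC3 (169 reads, 95% Poisson interval 234 to 318), 202 of BIRC2 (125 reads, 168 to 241) and 30.7 of MAP3K14 (19 reads, 18.5 to 48.0), where the control libraries reached 10.6, 75.0 and 15.0. The 4 other siVPS4A#1 libraries held at most 10.95, 57.8 and 10.1. It had 7 reads of VPS4A and 1 of VPS4B, the latter 1.62 RPM (0.0410 to 9.02) against 21.4 to 32.1 in the other siVPS4A#1 libraries.

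Of 63 groups of libraries examined for a library far from its group, 1 was flagged, and chance flags about 1 in 20. In siVPS4B#2 replicate 2 MAP3K14 stood at 4.63 RPM, below the 3 others of its condition.

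Effects that differed between duplexes of the same target were those of siVPS4A#1 against siVPS4A#2, at 0.63 for BIRC2 and -0.69 for TRAF3 on the log2 scale. The control duplexes differed from each other (siCTRL#2 minus siCTRL#1) by -0.80 for BIRC3 and 0.73 for MAP3K14.

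The effect of silencing one paralog differed with the state of the other. The interaction for siVPS4A+B#1 was called for BIRC2 (1.42), BIRC3 (5.31), XIAP (0.94), TRAF3 (0.87) and MAP3K14 (2.04), and for siVPS4A+B#2 for BIRC2 (1.12), BIRC3 (4.90), TRAF2 (0.86), TRAF3 (1.15) and MAP3K14 (2.06), all by limma on the log2 scale.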

How the results depend on the processing

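With BIRC3 and MAP3K14, the combined-silencing calls held in all 54 alternatives run, at mean log2 fold changes of 5.21 to 5.64 and 1.58 to 2.12, and the calls over single silencing and of the interaction held in all 53. The number of members called in combined silencing stayed between 2 and 4, and the call of BIRC2 was lost under limma's treat (1.16), with siCTRL#2 as control (0.70) and without replicate 4 (0.99). It was 3 by edgeR and by DESeq2. Without the replicate block the members called were again 3 in combined silencing, 3 over single silencing, 4 in the interaction, 0 for VPS4B and 0 for VPS4A, but 1 in place of 2 between siCTRL#1 and NT, and 9 in place of 7 pathway genes rose. No member's call other than the 2 of MAP3K14 named in the text, for siVPS4A#2 and for siCTRL#1 against NT, was lost without the block.

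Under treat, which tests against the fold limit itself, 2 members were called in the interaction, 3 pathway genes rose and 0 fell, and 0 members were called between the siVPS4A duplexes, for siCTRL#1 over NT, for siCTRL#2 over NT and between siCTRL#2 and siCTRL#1. Of all 12627 genes, 148 rose and 81 fell in combined silencing under treat, and 48 exceeded the sum in both interactions. With siCTRL#2 as control 1 member was called for VPS4B silencing and 1 for VPS4A silencing, and 14 pathway genes rose. The share of all genes under that control is not given here. With the library labelled siVPS4A#1 replicate 2 kept, 0 members were called in each of the 3 comparisons between controls. Between siVPS4A+B#2 and siVPS4A+B#1 there were 2 members with no fold minimum and 1 with a pseudocount of 0.1. The cause was not tested in any of these.

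Leaving out a library or a replicate number gave 2 to 4 members for combined silencing, 2 to 3 over single silencing, 3 to 4 in the interaction, 6 to 8 pathway genes up and 2 down, 1 to 2 members between the siVPS4A duplexes, 0 to 1 between the combined pairs, 1 to 2 for siCTRL#1 over NT, 0 to 1 for siCTRL#2 over NT and 1 to 3 between siCTRL#2 and siCTRL#1. Between the combined pairs 1 member passed without replicate 2, 3 or 4, without replicate 2, 3 or 4 of siVPS4A+B#1, replicate 2 or 4 of siVPS4A+B#2, replicate 3 of siVPS4A#2 or of siVPS4B#2, or siCTRL#1 replicate 5. The third member between siCTRL#2 and siCTRL#1 came without replicate 2 or siCTRL#1 replicate 2. The BIRC3 to BIRC2 log2 ratio against siCTRL#1 stayed within 3.71 to 4.26 and 3.64 to 3.98.

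Scaling by total reads alone moved the log2 fold changes of the 29 well-expressed member and pathway genes by a median of -0.18 to -0.06 in the 4 comparisons and put 32.6% of the combined calls among the risen genes, where the reported scaling put 48.8%. Genes at the floor of 3 reads, TRAF1 and most of TNF, cannot be compared at this depth.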
